A study of Mus musculus with 18 samples.

Results

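The serine proteases named Prss, Tmprss and kallikrein (Klk) were taken from the RNA-seq table of the mouse IS-caput epididymis, the initial segment dissected together with the caput, by a rule on gene symbols alone. Every row whose symbol began with Prss, Tmprss or Klk followed by a digit was kept, which gave 82 of 24346 genes: 38 Prss, 17 Tmprss and 27 Klk genes, among them 14 of the Klk1b type. The members were divided by what is known of their sites of expression. The lists held 17 epithelial, mostly membrane-anchored proteases, 17 germ cell proteases, 27 kallikreins and 14 proteases known mainly from other cell types, and 7 members were on no list.

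The study asked how testicular signals that reach the epididymis through blood and through the duct lumen act on its transcriptome. The 18 libraries fell into 6 groups of 3. The IS-caput of 12-week-old wild-type B6D1F1 males was taken after bilateral orchidectomy (BOD), with sham operation as its control, and from the ipsilateral and the contralateral side after unilateral orchidectomy (UOD), in which 1 testis stayed in place. The remaining groups were untreated 14-week-old Nell2-/- mice, which lack NELL2, a ligand that testicular germ cells release into the lumen, and untreated 14-week-old WT mice. The ipsilateral and contralateral tissues came from the same mice, and the Nell2-/- and WT libraries were sequenced for an earlier study. Changes were therefore taken within each pair of groups. Where levels of operated mice are set beside those of Nell2-/- or WT mice, age and cohort differ as well.

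Values were FPKM, a read count scaled to the length of the transcript and to the reads mapped, and the read depth behind them was unknown. The summed FPKM of a library ran from 528664 to 825866, with the 3 BOD libraries lowest, and log2 values of libraries of 1 group correlated at 0.981 to 0.986. By marker sums BOD library 1 differed from BOD libraries 2 and 3. It held 79.3 FPKM of basal cell markers, against 151 and 147 FPKM, 403 FPKM of fibroblast and smooth muscle markers, against 948 and 991 FPKM, and 4.60 FPKM of mast cell markers, against 14.4 and 19.9 FPKM. The fibroblast and smooth muscle gap was that of Dcn. Without Dcn, BOD library 1 held 214 FPKM of these markers, between the 198 and 256 FPKM of BOD libraries 2 and 3. Nell2 was listed at 0, 0.0274 and 0 FPKM in Nell2-/- tissue and at 0.130, 0.0302 and 0.0610 FPKM in WT tissue. Its transcript is known from germ cells of the testis, and at so low a level in this tissue it gave little check of the genotype. Ipsilateral UOD libraries listed Nell2 at 0.258, 0.287 and 0.355 FPKM and contralateral ones at 0.262, 0.369 and 0.135 FPKM. The source of this signal was not tested. The epididymal tissue markers Lcn5, Lcn8, Adam28, Crisp1, Defb48 and Ros1 summed to 25926 to 34620 FPKM in the sham, contralateral and WT libraries.

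Serine proteases cut proteins at a site set by a catalytic serine, and most are made as inactive precursors that another protease must cut. Type II transmembrane serine proteases (Tmprss) and lipid-anchored enzymes such as prostasin act at the epithelial cell surface, where matriptase, hepsin and the Kunitz inhibitors HAI-1 and HAI-2 act with them. Kallikreins are secreted enzymes encoded side by side in 1 cluster, and a set of Prss genes is transcribed in spermatids and gives proteins of the acrosome or the sperm surface. The epididymal lumen holds sperm, so transcripts of both sources can be present in this tissue.

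Of the 82 members, 16 were listed at 0 in all 18 libraries and 45 reached 0.1 FPKM in at least 3 libraries and were tested. A mean of at least 1 FPKM in some group was reached by 17 members, and 5 of them reached 10 FPKM: Prss8, Prss12, Prss23, Prss57 and Tmprss2. Log2 fold changes below are on the log2(FPKM + 0.1) scale, which understates changes of low genes, with adjusted p from limma over 17302 genes, and a member is called changed at an adjusted p under 0.05. After BOD 7 members fell and 11 rose against sham, where 31.4% of all tested genes fell and 30.4% rose; without BOD library 1 the counts were 6 and 10. In the ipsilateral UOD tissue 5 fell and 6 rose against the contralateral side, with 18.6% and 16% of all genes called in those directions. In Nell2-/- tissue 3 fell and 10 rose against WT, with 18.6% and 17.8% of all genes called. The members' shares were 15.6% lower and 24.4% higher after BOD, 11.1% and 13.3% in UOD and 6.67% and 22.2% in Nell2-/- tissue. The last of these was above the share of all genes and the others were below it. In either direction 61.7% of all tested genes were called after BOD, 34.6% in UOD and 36.3% in Nell2-/- tissue. Prss8, Prss36, Tmprss2 and Tmprss7 rose in all of BOD, UOD and Nell2-/- tissue, and Prss33 fell in all of them. The share of all tested genes called the same way in all of them was not counted.

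**Figure D1:**
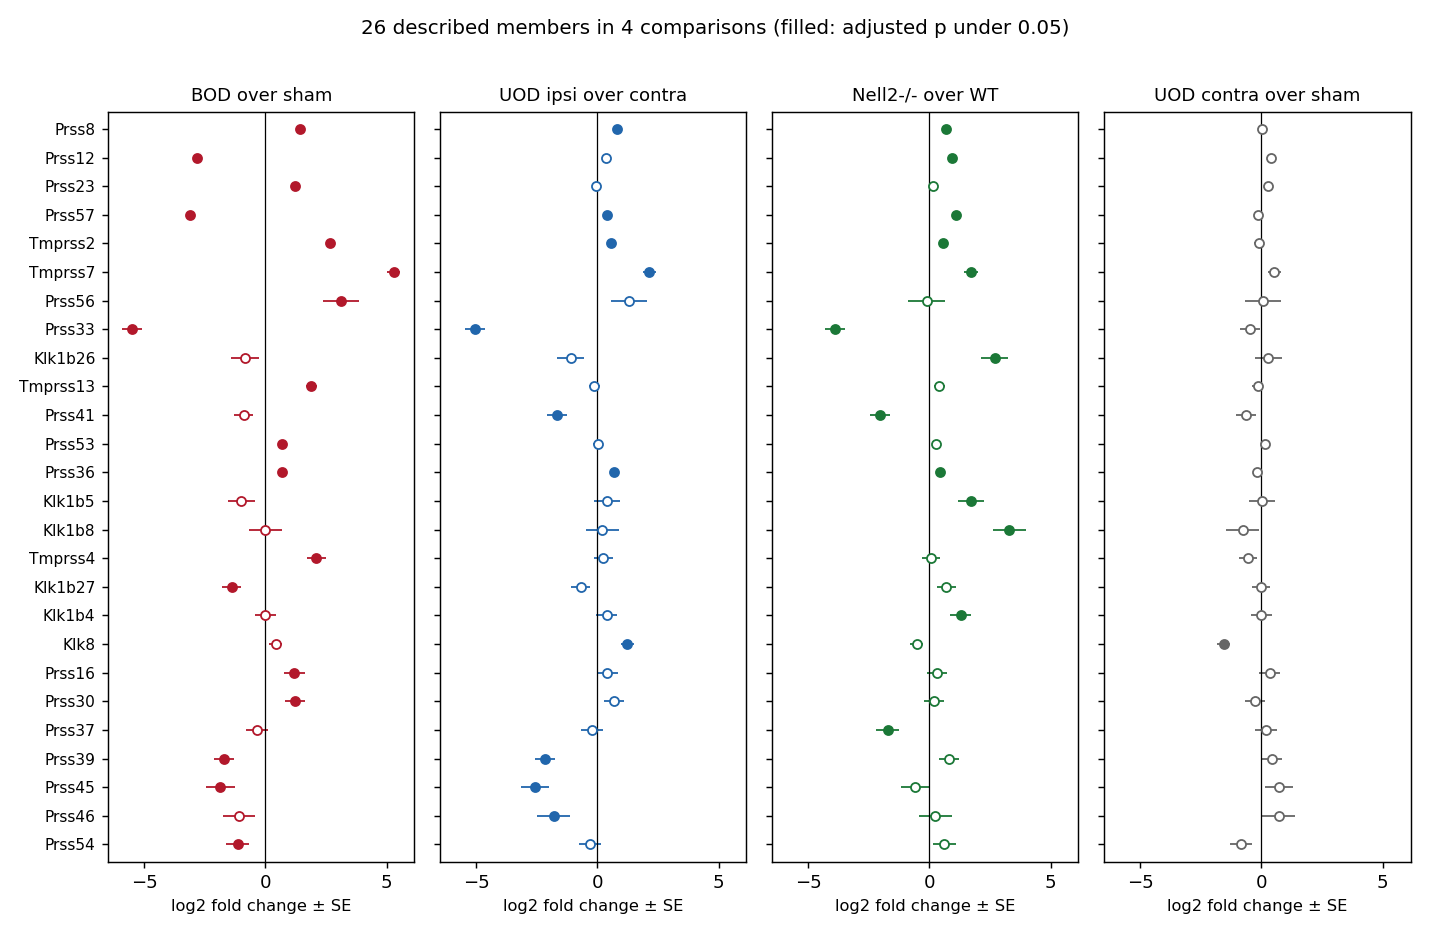
Log2 fold changes (x axis, log2(FPKM + 0.1) scale, with the standard error as a bar) of the 26 described members (y axis, by falling highest group mean) in BOD over sham, ipsilateral over contralateral UOD, Nell2-/- over WT and contralateral UOD over sham; filled points have an adjusted p under 0.05. Tmprss7 lies farthest to the right after BOD at 5.30 and Prss33 farthest to the left at -5.49, and Klk8 is the single filled point in the contralateral comparison.

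The epithelial list was led by Prss8, prostasin, a lipid-anchored protease that activates the epithelial sodium channel. The gene lies at chr7:127925717-127930149 on the minus strand (GRCm38). Prss8 stood at 98.2, 85.0 and 83.8 FPKM in BOD libraries and 31.9, 30.1 and 35.8 FPKM in sham libraries, so that every BOD library was above every sham library. It rose by 1.45 ± 0.077 (adjusted p = 2.85e-11). On the ipsilateral side of UOD it measured 59.5, 57.7 and 57.0 FPKM, against 34.7, 32.5 and 31.0 FPKM on the contralateral side, and in Nell2-/- tissue 53.0, 46.4 and 52.1 FPKM, against 30.8, 29 and 33.0 FPKM in WT tissue. Neither pair of groups overlapped, and the log2 fold changes were 0.83 ± 0.077 (adjusted p = 1.97e-07) in UOD and 0.70 ± 0.077 (adjusted p = 1.05e-06) in Nell2-/- tissue. The BOD change exceeded the UOD change by 0.62 ± 0.11 (adjusted p = 2.20e-04) and the Nell2-/- change by 0.74 ± 0.11 (adjusted p = 2.82e-05), while the UOD and Nell2-/- changes differed by 0.12 ± 0.11 (adjusted p = 0.617), which did not pass the test. Its exons share 122 of 1852 bases with Kat8 on the other strand, which stayed at 9.39 to 16.9 FPKM in all libraries. In bulk tissue a larger share of the cells that make a transcript and more of it per cell cannot be told apart.

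Tmprss2, a type II transmembrane protease regulated by androgen in human prostate, was at 12.1, 14.9 and 12.5 FPKM after BOD and at 1.49, 2.35 and 2.17 FPKM after sham operation, with no overlap. It rose by 2.68 ± 0.17 (adjusted p = 4.24e-10). The ipsilateral libraries held 2.72, 2.58 and 2.96 FPKM and the contralateral ones 1.95, 1.48 and 2.06 FPKM, and the Nell2-/- libraries 2.53, 3.52 and 3.36 FPKM and the WT ones 1.82, 2.36 and 2.11 FPKM. These smaller rises of 0.58 ± 0.17 (adjusted p = 0.0155) in UOD and 0.55 ± 0.17 (adjusted p = 0.0187) in Nell2-/- tissue were lost when single libraries were left out: 0.0875 without contralateral library 2 and 0.0549 without ipsilateral library 3 in UOD, and 0.0832 without WT library 1, 0.0807 without Nell2-/- library 2 and 0.0679 without Nell2-/- library 3 in Nell2-/- tissue (adjusted p). The BOD rise exceeded that of UOD by 2.10 ± 0.25 (adjusted p = 2.79e-06).

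Tmprss13 and Tmprss4, both of the same transmembrane type, rose after BOD and did not pass the test in UOD or Nell2-/- tissue. Tmprss13 had 5.20, 3.85 and 4.15 FPKM in BOD libraries, against 1.39, 0.817 and 1.18 FPKM in sham libraries, a rise of 1.89 ± 0.23 (adjusted p = 1.35e-06). Tmprss4 had 0.949, 1.28 and 1.20 FPKM after BOD, against 0.0872, 0.166 and 0.379 FPKM after sham operation, a rise of 2.10 ± 0.39 (adjusted p = 1.44e-04). For both the lowest BOD library was above the highest sham library, and the changes in UOD were -0.13 ± 0.23 (adjusted p = 0.706) for Tmprss13 and 0.25 ± 0.39 (adjusted p = 0.667) for Tmprss4. Exons of Tmprss4 share 412 of 2589 bases with the antisense transcript Gm17099, which was not analysed here. The BOD change differed from the UOD change by 2.02 ± 0.32 (adjusted p = 8.44e-05) for Tmprss13 and 1.85 ± 0.55 (adjusted p = 0.0124) for Tmprss4. Prss30, a membrane protease described in mouse intestine, was lower still, at 0.221, 0.213 and 0.257 FPKM after BOD and 0.0710, 0 and 0.0618 FPKM in sham tissue. Its rise of 1.23 ± 0.42 (adjusted p = 0.0175) had an adjusted p of 0.0788 without sham library 2 and of 0.0809 with 0.01 FPKM added before logs. Together 5 of the 6 tested epithelial members rose after BOD, 2 in UOD and 2 in Nell2-/- tissue, and none fell; Prss22 was the member that passed no test. These were 83.3%, 33.3% and 33.3% of the 6, beside 30.4%, 16% and 17.8% of all tested genes. Prss30 reached 0.1 FPKM in 4 libraries, the 3 BOD libraries and ipsilateral library 3. It was thus tested only through the group in which it was higher, and its call adds little to the BOD share.

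Summed over the 17 epithelial members, each BOD library held 103 to 117 FPKM and each sham library 33.6 to 40.3 FPKM, a ratio of means of 2.98. Prss8 made up most of this sum, and without it the ratio was 5.08. The sums were 61.7 to 63.4 FPKM on the ipsilateral side, against 34.3 to 38.0 FPKM on the contralateral side, and 51.3 to 56.8 FPKM in Nell2-/- tissue, against 32.7 to 36.2 FPKM in WT tissue. The general epithelial markers Epcam, Cdh1, Krt8, Krt18, Krt19 and Cldn7 summed to 1164 to 1325 FPKM after BOD and 1247 to 1304 FPKM after sham operation, which overlapped. Among them Krt8 and Krt19 fell and Epcam and Cldn7 rose after BOD. Their sum was 1269 to 1346 FPKM on the ipsilateral side, against 1163 to 1210 FPKM on the contralateral side, and 1349 to 1420 FPKM in Nell2-/- tissue, against 1132 to 1145 FPKM in WT tissue, so in these pairs it was higher without overlap, as was the protease sum. Krt19 and Cldn7 alone were called higher in these pairs, and Cdh1 was called lower in Nell2-/- tissue. The median log2 fold change of the 6 markers was -0.061 in UOD and 0.029 in Nell2-/- tissue. Clear and narrow cell markers, led by Foxi1, summed to 282 to 346 FPKM in BOD libraries and to 116 to 117 FPKM in sham libraries, to 135 to 160 FPKM on the ipsilateral side and 105 to 112 FPKM on the contralateral side, and to 153 to 165 FPKM in Nell2-/- tissue and 114 to 120 FPKM in WT tissue. Without Foxi1 the sum was 188 to 216 FPKM after BOD, against 78.9 to 81.9 FPKM in sham tissue. It then overlapped in the other pairs, at 64.6 to 76.0 FPKM ipsilaterally and 68.6 to 73.7 FPKM contralaterally. The Nell2-/- range was 76.7 to 82.0 FPKM, against 76.4 to 81.1 FPKM in WT tissue. Foxi1, Atp6v1b1 and Atp6v1g3 were called higher and Atp6v0d2 lower in UOD and in Nell2-/- tissue. The part of either marker set in the protease result was not tested.

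**Figure D2:**
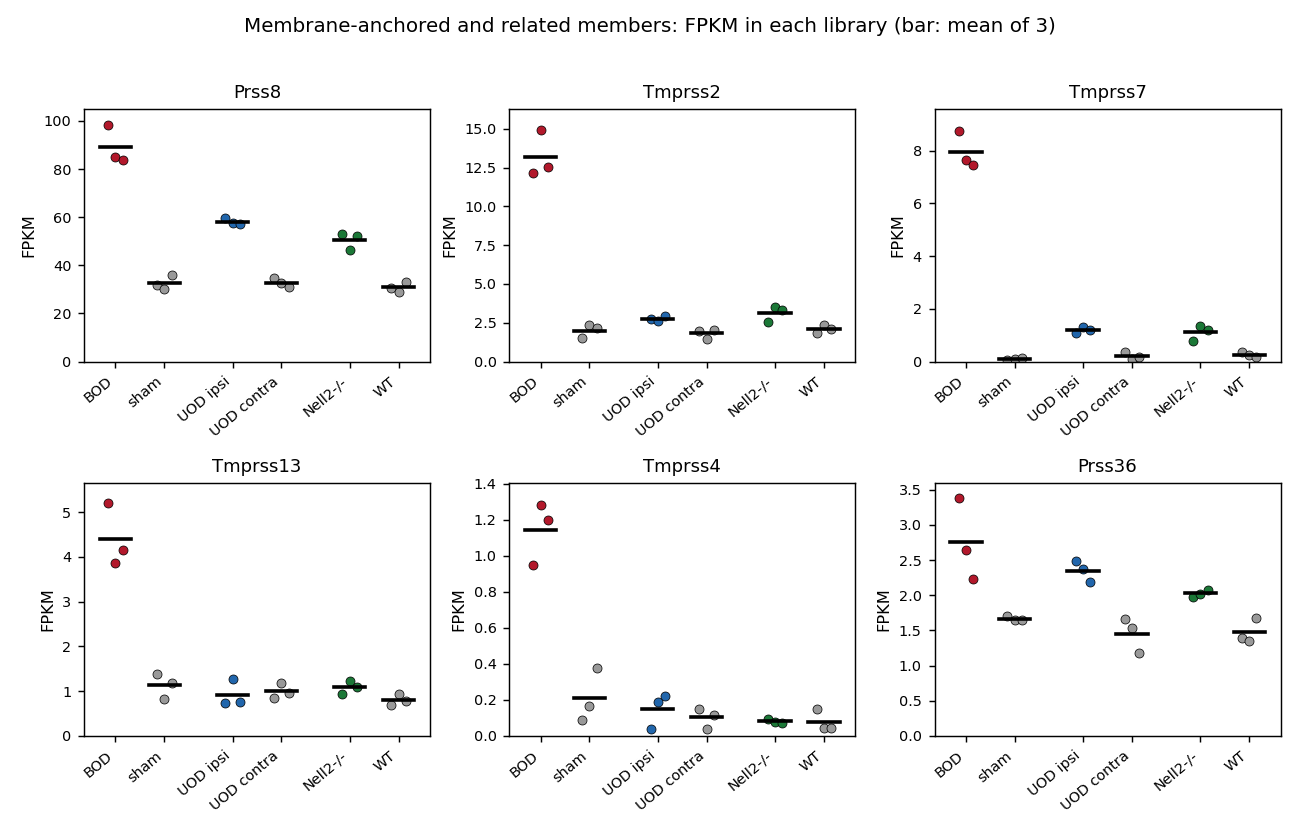
FPKM (y axis, from 0) of Prss8, Tmprss2, Tmprss7, Tmprss13, Tmprss4 and Prss36 in each library of the 6 groups (x axis), with the mean of 3 as a bar. The group mean is highest in BOD libraries for each gene, and Prss8 and Tmprss7 are also raised in the ipsilateral UOD and Nell2-/- libraries.

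Tmprss7, matriptase-3, showed the largest rise of the 45 tested members after BOD. The BOD libraries held 8.73, 7.64 and 7.45 FPKM and the sham libraries 0.0755, 0.108 and 0.131 FPKM. The rise was 5.30 ± 0.27 (adjusted p = 1.99e-11), and the ratio of means was 75.6. The ipsilateral libraries held 1.09, 1.33 and 1.19 FPKM, against 0.359, 0.106 and 0.168 FPKM in the contralateral ones, and the Nell2-/- libraries 0.791, 1.37 and 1.22 FPKM, against 0.355, 0.263 and 0.190 FPKM in the WT ones. Neither pair overlapped, with rises of 2.15 ± 0.27 (adjusted p = 9.08e-06) in UOD and 1.72 ± 0.27 (adjusted p = 7.59e-05) in Nell2-/- tissue. The BOD rise was larger than the UOD rise by 3.15 ± 0.39 (adjusted p = 5.10e-06). The size of these changes for so low a gene depended on the amount added before logs, and the BOD minus UOD difference ran from 2.15 to 3.52 over the alternatives.

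Prss8, Prss36 and Prss53 lie within 1 stretch of chromosome 7 on the minus strand, with 2488 bases between Prss8 and Prss36 and 32751 bases between Prss53 and Prss8. Prss36 and Prss53 encode polyserases, which carry several protease domains in 1 chain. Prss36 measured 3.38, 2.64 and 2.23 FPKM in BOD libraries and 1.70, 1.65 and 1.64 FPKM in sham libraries, a rise of 0.67 ± 0.16 (adjusted p = 0.00121). It measured 2.49, 2.38 and 2.19 FPKM on the ipsilateral side and 1.66, 1.53 and 1.18 FPKM on the contralateral side, a rise of 0.67 ± 0.16 (adjusted p = 0.00283). In Nell2-/- tissue it measured 1.98, 2.02 and 2.08 FPKM, against 1.40, 1.35 and 1.68 FPKM in WT tissue, with no overlap in any of these pairs. The Nell2-/- rise of 0.44 ± 0.16 (adjusted p = 0.0355) was lost without any of 5 libraries: 0.0970 without WT library 1, 0.119 without WT library 2, 0.0654 without Nell2-/- library 1, 0.0733 without Nell2-/- library 2 and 0.0881 without Nell2-/- library 3 (adjusted p). Prss53 held 3.94, 2.64 and 2.60 FPKM in BOD libraries, against 2.05, 1.51 and 1.88 FPKM in sham libraries, a rise of 0.71 ± 0.18 (adjusted p = 0.00247), and changed by 0.012 ± 0.18 (adjusted p = 0.975) in UOD, which did not pass the test. Its exons share 156 of 2134 bases with Zfp646 on the other strand, which measured 9.22, 8.55 and 8.35 FPKM after BOD and 4.79, 6.12 and 6.50 FPKM after sham operation, and 1636 bases with Gm21974 on its own strand, a gene model that was not analysed here.

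Prss33 and Prss41 are next to each other on chromosome 17, 91 bases apart and both on the minus strand, at chr17:23833338-23836693 and chr17:23836785-23844219. Prss33 is a trypsin-like protease on no list, and Prss41 is on the germ cell list as a testis protease of spermatogenic cells. The sequences before their listed starts are shown because both fell in UOD and in Nell2-/- tissue. Each is the 250 bases before the start listed by RefSeq (GRCm38.p6), 5′ to 3′ on the gene's strand, with capitals for matches to the letters searched on both strands: the androgen response half-site TGTTCT, the ETS site AGGAAG, and the TATA letters TATAAA and TTTAAA.
Prss33, chr17:23835768-23836017: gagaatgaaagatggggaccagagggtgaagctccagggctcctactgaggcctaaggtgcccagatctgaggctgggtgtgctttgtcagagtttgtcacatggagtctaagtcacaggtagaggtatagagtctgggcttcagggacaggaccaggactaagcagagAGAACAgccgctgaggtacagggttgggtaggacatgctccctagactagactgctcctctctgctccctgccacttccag
Prss41, chr17:23844157-23844406: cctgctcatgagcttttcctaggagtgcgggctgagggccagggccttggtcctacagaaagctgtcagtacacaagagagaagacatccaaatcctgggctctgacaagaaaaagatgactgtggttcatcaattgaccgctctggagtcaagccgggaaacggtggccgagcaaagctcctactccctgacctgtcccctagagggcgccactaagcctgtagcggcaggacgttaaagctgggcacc
The Prss33 window held 1 half-site, 81 bases before the start, a match found in 16.1% of 27025 RefSeq promoters of the same length, and the Prss41 window held none of the letters. No matches overlapped in the windows shown. The start listed by RefSeq lies within the span given for each gene, so all 250 bases of the Prss33 window and 63 of those of Prss41 are inside that span and downstream of its 5′ end.

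Prss33 was listed at 0, 0 and 0.110 FPKM in BOD libraries, against 6.55, 5.59 and 4.97 FPKM in sham libraries. On the ipsilateral side it was listed at 0, 0 and 0.111 FPKM, against 3.03, 4.56 and 5.02 FPKM on the contralateral side. In Nell2-/- tissue it stood at 0.165, 0 and 0.246 FPKM, against 3.06, 3.11 and 2.84 FPKM in WT tissue. The low groups lay at or near 0 and far below every library of their controls. The log2 fold changes were -5.49 ± 0.41 (adjusted p = 3.17e-09) after BOD, -5.04 ± 0.41 (adjusted p = 3.90e-08) in UOD and -3.89 ± 0.41 (adjusted p = 7.47e-07) in Nell2-/- tissue, and with values at 0 their sizes are set by the 0.1 FPKM added. Of the 45 tested members, Prss33 alone was called lower in all of these comparisons, and the share of all tested genes called so was not counted.

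Prss41 fell in UOD and Nell2-/- tissue but not in the test of BOD. The ipsilateral libraries had 0.337, 0.509 and 1.30 FPKM, against 2.22, 2.03 and 2.29 FPKM in the contralateral ones, a change of -1.66 ± 0.41 (adjusted p = 0.00414) whose adjusted p was 0.0748 with 0.01 FPKM added before logs. The Nell2-/- libraries had 0.143, 0 and 0.0797 FPKM, against 0.591, 0.985 and 0.298 FPKM in the WT ones, a change of -2.03 ± 0.41 (adjusted p = 7.20e-04). The BOD libraries kept 1.62, 1.48 and 2.36 FPKM, below the 3.86, 3.39 and 3.01 FPKM of the sham libraries with no overlap, and the change of -0.90 ± 0.41 (adjusted p = 0.0670) did not pass the test. It passed with 1 FPKM added before logs (adjusted p = 0.00447) and with a spread estimated from the BOD and sham libraries alone (adjusted p = 0.00504). The 15 sperm and late germ cell markers summed to 3.06 to 3.88 FPKM in BOD libraries, of which Tssk6 made up 2.60 to 3.37 FPKM, against 83.1 to 103 FPKM in sham libraries. The part of sperm content in the level of Prss41 was not tested.

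Among the proteases known mainly from other cell types, Prss12, Prss23 and Prss57 were the most abundant. Prss12 encodes neurotrypsin, a secreted protease that cleaves agrin at synapses, at chr3:123446913-123506602. It dropped to 3.20, 3.64 and 2.92 FPKM in BOD libraries, against 19.4, 21.1 and 32.0 FPKM in sham libraries, a change of -2.83 ± 0.15 (adjusted p = 5.66e-11). In Nell2-/- tissue it was higher, at 50.2, 39.5 and 44.7 FPKM, against 24.1, 19.6 and 25.9 FPKM in WT tissue. The ipsilateral libraries had 39.9, 39.8 and 40.5 FPKM and the contralateral ones 31.7, 31.4 and 29.9 FPKM. No pair overlapped, and the changes were 0.95 ± 0.15 (adjusted p = 7.78e-05) in Nell2-/- tissue and 0.37 ± 0.15 (adjusted p = 0.0661) in UOD. The UOD change did not pass the test with the spread shared by all groups and had an adjusted p of 0.000559 with the spread of the 6 UOD libraries alone. The BOD change minus the UOD change was -3.20 ± 0.21 (adjusted p = 4.00e-09), and minus the Nell2-/- change -3.78 ± 0.21 (adjusted p = 4.33e-10).

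Like Prss12, the table's Prss57, neutrophil serine protease 4, had its lowest group mean after BOD and its highest in Nell2-/- tissue. It was at 1.49, 1.08 and 1.12 FPKM after BOD, against 11.1, 10.3 and 12 FPKM after sham operation, and at 15.9, 15.7 and 20.1 FPKM in Nell2-/- tissue, against 8.21, 8.06 and 7.67 FPKM in WT tissue. The ipsilateral libraries had 13.2, 13.3 and 13.1 FPKM and the contralateral ones 9.41, 11.1 and 9.39 FPKM, again with no overlap in any pair. The changes were -3.09 ± 0.11 (adjusted p = 1.76e-13) in BOD, 0.41 ± 0.11 (adjusted p = 0.00993) in UOD and 1.09 ± 0.11 (adjusted p = 5.76e-07) in Nell2-/- tissue. Neutrophil markers were near 0: S100a8, S100a9, Mpo, Elane and Ngp summed to at most 1.04 FPKM in any library.

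Prss57 shares 1157 of its 2843 exon bases with Fstl3, which is transcribed from the other strand and encodes a secreted binder of activin. Fstl3, looked up after the values of Prss57 were seen, measured 0.680, 0.895 and 0.780 FPKM in BOD libraries and 7.76, 8.66 and 8.72 FPKM in sham libraries. It measured 8.23, 12.1 and 10.3 FPKM on the ipsilateral side and 9.20, 7.83 and 7.46 FPKM on the contralateral side, and 12.5, 10.4 and 14.4 FPKM in Nell2-/- tissue and 6.45, 6.09 and 7.18 FPKM in WT tissue. Prss57 over Fstl3 stayed between 1.02 and 2.19 in all 18 libraries. Fstl3 changed by -3.27 ± 0.14 (adjusted p = 1.73e-12) after BOD, 0.31 ± 0.14 (adjusted p = 0.107) in UOD and 0.90 ± 0.14 (adjusted p = 6.82e-05) in Nell2-/- tissue. The library kit marks strand, but whether the counting used it is not stated in the sources used here, and without it reads of Prss57 and Fstl3 cannot be told apart.

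Prss23, a secreted protease found in many tissues, rose after BOD to 20.7, 27.9 and 34.3 FPKM, against 12.9, 11.4 and 10.6 FPKM in sham tissue, by 1.22 ± 0.15 (adjusted p = 1.90e-06). It had 13.9, 14.2 and 12 FPKM on the ipsilateral side and 13.9, 12.2 and 15.6 FPKM on the contralateral side, which overlapped, as did 12.1, 10.9 and 9.76 FPKM in Nell2-/- tissue and 10.8, 8.87 and 9.79 FPKM in WT tissue. The BOD change exceeded the UOD change by 1.27 ± 0.21 (adjusted p = 1.30e-04). Its exons share 864 of 3767 bases with the antisense transcript Prss23os. Prss56, a protease known for its part in the growth of the eye, varied widely, with 1.83, 8.90 and 6.44 FPKM after BOD, against 0.300, 0.572 and 0.523 FPKM after sham operation. The lowest BOD library was still above the highest sham library, and the rise was 3.13 ± 0.75 (adjusted p = 0.00202). BOD library 1 was the lowest for both genes, and without it the rises were 1.41 for Prss23 (adjusted p = 7.87e-08) and 3.80 for Prss56 (adjusted p = 0.000612). The Nell2-/- libraries of Prss56 spread from 0.161 to 3.44 FPKM around a WT range of 0.641 to 1.30 FPKM, with no call, and in UOD the change of 1.30 ± 0.75 (adjusted p = 0.201) passed the test with the spread of the 6 UOD libraries alone (adjusted p = 0.0225). Prss16, a thymus protease, was at most 0.236 FPKM and was listed at 0 in the 3 sham libraries; its call after BOD, at 0.144, 0.194 and 0.0667 FPKM (adjusted p = 0.0231), was lost without BOD library 1 (0.0573) or BOD library 2 (0.0887). Fibroblast and smooth muscle markers moved in BOD tissue as well, with Dcn called higher and Cnn1, Col1a1, Col1a2 and Pdgfra lower, and mast cell markers summed to 4.60 to 19.9 FPKM in BOD libraries, against 1.53 to 2.80 FPKM in sham libraries; their part in these changes was not tested.

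**Figure D3:**
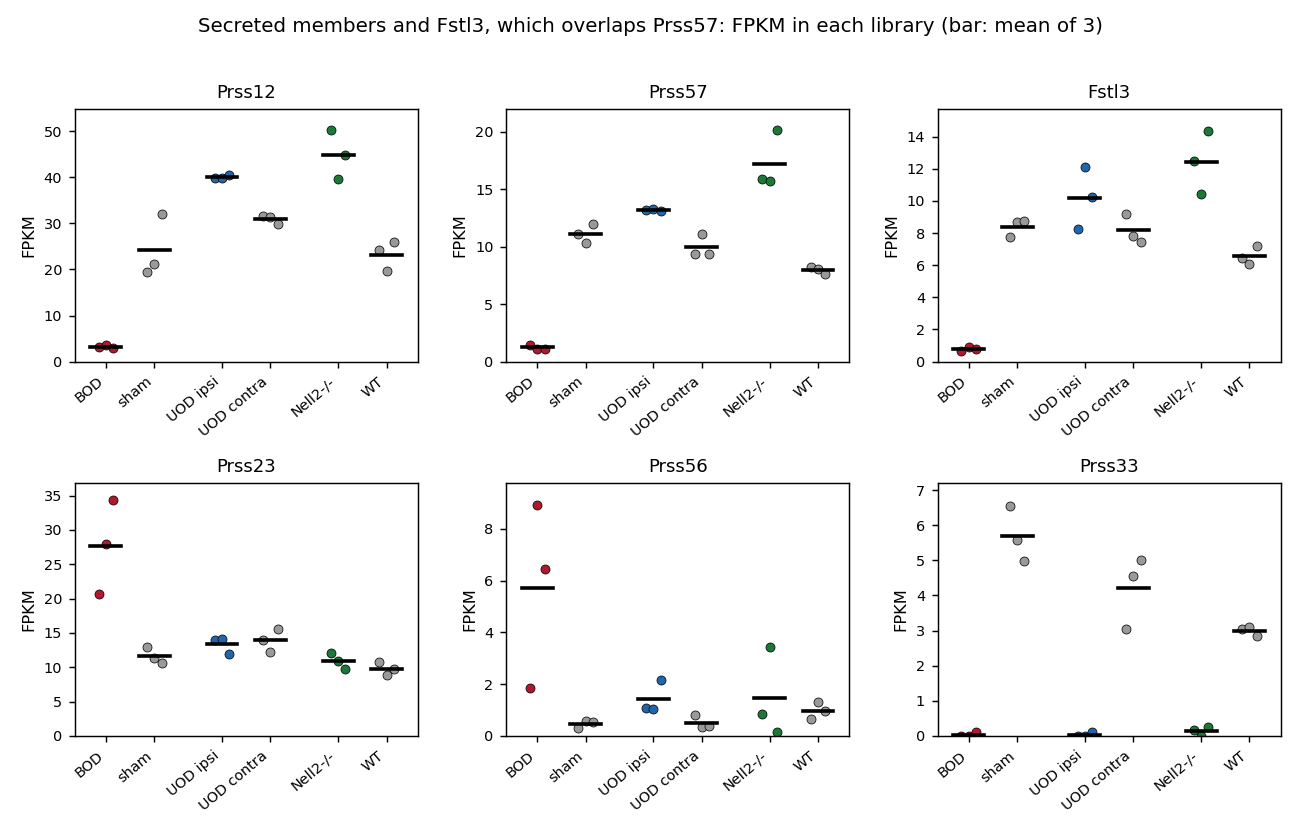
FPKM (y axis, from 0) of Prss12, Prss57, Fstl3, Prss23, Prss56 and Prss33 in each library of the 6 groups (x axis), with the mean of 3 as a bar. Prss57 and Fstl3 are low together in the 3 BOD libraries, at 1.08 to 1.49 FPKM for Prss57, and Prss33 is at or near 0 in the BOD, ipsilateral UOD and Nell2-/- libraries.

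Germ cell members were low in every group. Apart from Prss41 none of the 17 reached a group mean of 1 FPKM, and 12 were tested. After BOD 3 of the 12 fell, in ipsilateral UOD tissue 4 and in Nell2-/- tissue 2, and none rose in any comparison. These were 25%, 33.3% and 16.7% of the 12, beside 31.4%, 18.6% and 18.6% of all tested genes, so the share was above that of all genes in UOD alone. Prss39, an acrosomal protease of mouse sperm, was listed at 0 in the 3 BOD libraries and at 0.0862, 0.246 and 0.450 FPKM in sham libraries (adjusted p = 0.00172). It was also listed at 0 in the 3 ipsilateral libraries, with 0.149, 0.645 and 0.384 FPKM on the contralateral side (adjusted p = 5.59e-04). In Nell2-/- tissue it was present, at 0.623, 0.702 and 0.833 FPKM, against 0.662, 0.258 and 0.260 FPKM in WT tissue, an overlapping change of 0.82 ± 0.42 (adjusted p = 0.140). The Nell2-/- and ipsilateral changes of Prss39 differed (adjusted p = 0.00616).

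Prss45 and Prss46 are neighbours in the germ cell cluster of chromosome 9, which runs from Prss42 to Prss50 on the plus strand. Prss45 was listed at 0 in the BOD and ipsilateral libraries, against 0.175, 0.0832 and 0.836 FPKM in sham libraries and 0.756, 0.245 and 0.622 FPKM in contralateral libraries. Its adjusted p was 0.0114 after BOD, or 0.0844 without sham library 3, and 0.00234 in UOD. Prss46 was listed at 0 in the same 6 libraries, with 0.443, 0 and 0.683 FPKM on the contralateral side, and its call in UOD (adjusted p = 0.0479) was lost without contralateral library 1 (0.158) or 3 (0.219), without any ipsilateral library (0.0951 to 0.0965) and in 3 other settings. Prss54, an inactive protease homologue of the sperm acrosome, was listed at 0 in the BOD libraries and at 0.284, 0.180 and 0 FPKM in sham libraries. Its call after BOD (adjusted p = 0.0437) was lost without sham library 1 (0.211) or 2 (0.132) and without any BOD library (0.0803 to 0.0840).

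Prss37, which mouse sperm need to reach the oviduct, was listed at 0 in the 3 Nell2-/- libraries and at 0.454, 0.106 and 0.214 FPKM in WT libraries (adjusted p = 0.00679). Prss37 reached 0.1 FPKM in 5 libraries, the 3 WT libraries, sham library 2 and contralateral library 2. Without the WT group, in which it was higher, it would not have been tested, and its call adds little to the Nell2-/- share. The other germ cell members tested, Prss40, Prss42, Prss50, Prss21, Prss51 and Prss55, had group means of at most 0.148 FPKM and no call in any of the 4 comparisons. Prss21 is testisin, a lipid-anchored protease of the sperm surface.

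Without Prss41, the germ cell members summed to 0 to 0.191 FPKM in BOD libraries, against 1.35 to 1.80 FPKM in sham libraries, and to 0 to 0.152 FPKM on the ipsilateral side, against 1.70 to 1.95 FPKM on the contralateral side. In Nell2-/- libraries the sum was 1.42 to 1.91 FPKM, within the 0.801 to 3.12 FPKM of the WT libraries. The 15 sperm and late germ cell markers summed to 5.29 to 8.83 FPKM on the ipsilateral side, against 75.3 to 99.7 FPKM on the contralateral side, and 264 to 299 FPKM in Nell2-/- tissue, against 178 to 278 FPKM in WT tissue. Of these markers 12 fell after BOD and 12 in UOD, none fell in Nell2-/- tissue, and 1 rose after BOD (Tssk6) and 1 in Nell2-/- tissue (Akap4). Prss33, Prss37 and Prss41 were the members called lower in Nell2-/- tissue. The part of sperm content in the germ cell protease levels was not tested.

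**Figure D4:**
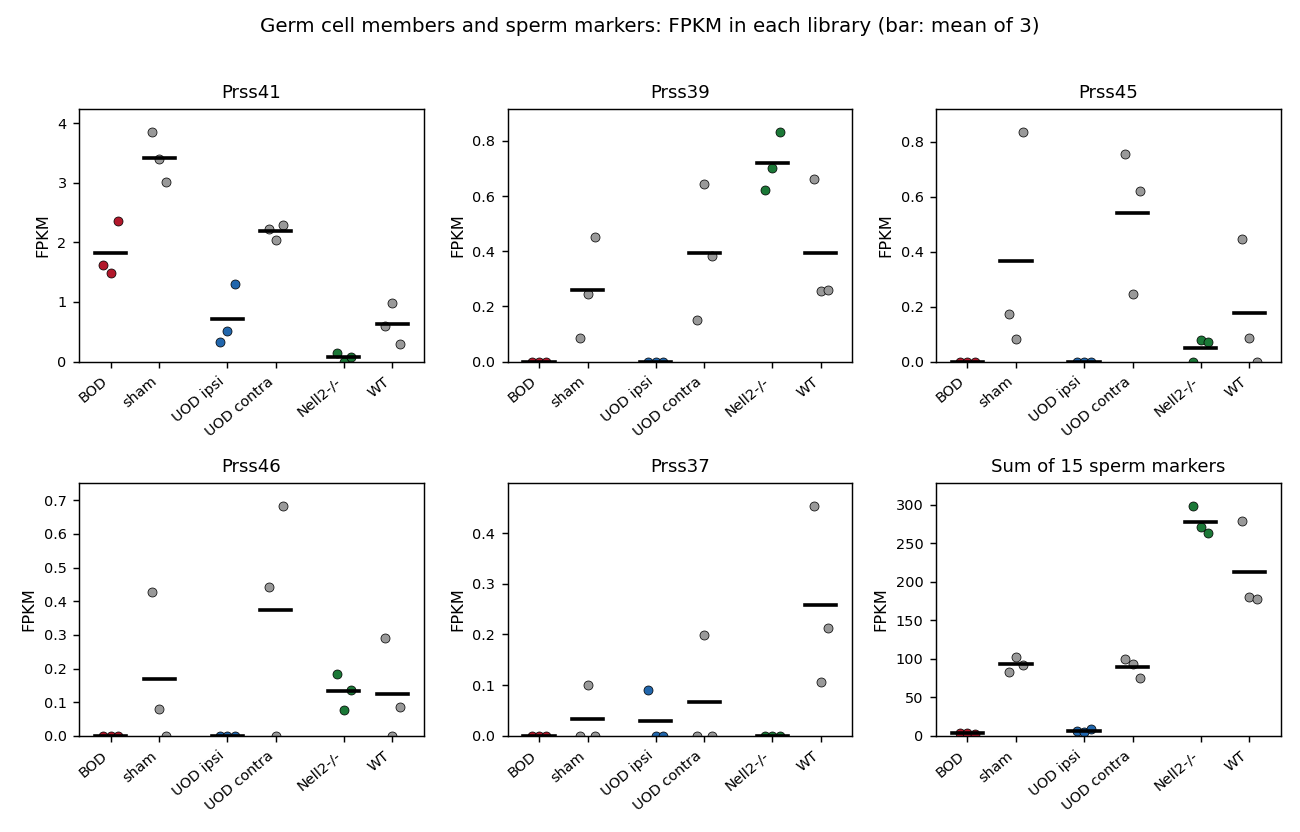
FPKM (y axis, from 0) of Prss41, Prss39, Prss45, Prss46 and Prss37 and the summed FPKM of 15 sperm and late germ cell markers in each library of the 6 groups (x axis), with the mean of 3 as a bar. In BOD and ipsilateral UOD libraries Prss39, Prss45 and Prss46 are at 0, the marker sum is 3.06 to 8.83 FPKM and Prss41 has 0.337 to 2.36 FPKM.

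The summed kallikreins were higher in Nell2-/- tissue than in WT tissue, mostly through Klk1b26, Klk1b5 and Klk1b8, whose group means in Nell2-/- tissue were 4.9, 2.51 and 2.13 FPKM. Over 27 genes the sum was 10 to 14.1 FPKM in Nell2-/- libraries, against 2.73 to 3.32 FPKM in WT libraries, a ratio of means of 3.97. In BOD libraries the sum was 2.02 to 2.48 FPKM, against 3.06 to 4.81 FPKM in sham libraries, and it was 2.91 to 3.74 FPKM on the ipsilateral side and 3.12 to 3.34 FPKM on the contralateral side. Of the 14 tested, 4 rose in Nell2-/- tissue (Klk1b26, Klk1b8, Klk1b5 and Klk1b4), 1 rose in UOD (Klk8) and 1 fell after BOD (Klk1b27). The 4 were 28.6% of those tested, beside 17.8% of all genes, while the single calls were 7.14%, beside 16% of all genes higher in UOD and 31.4% lower after BOD. Klk1b4 reached 0.1 FPKM in 3 libraries, Nell2-/- libraries 1 and 2 and ipsilateral library 1. Without the Nell2-/- group, in which it was higher, Klk1b4 would not have been tested, and its call adds little to the Nell2-/- share. The calls of Klk1b26, Klk1b5 and Klk1b4 were lost in some alternatives, given below. The median log2 fold change of the 14 was 0.57 in Nell2-/- tissue, against 0.02 over all tested genes.

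The Klk1b genes are close copies on the plus strand of chromosome 7, and in mice several are made in large amounts in the submandibular gland. The first 60 coding bases of the 5 described here are shown to make plain how little separates them, with the 4 positions at which they differ in capitals (GENCODE transcripts, GRCm38, from the start codon at the position given).
Klk1b8, chr7 43950691: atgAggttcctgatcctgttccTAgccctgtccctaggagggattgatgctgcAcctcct
Klk1b26, chr7 44012720: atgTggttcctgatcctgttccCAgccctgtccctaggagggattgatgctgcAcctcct
Klk1b5, chr7 44216501: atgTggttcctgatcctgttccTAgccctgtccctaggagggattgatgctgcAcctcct
Klk1b4, chr7 44207454: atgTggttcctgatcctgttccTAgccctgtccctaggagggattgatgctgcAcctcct
Klk1b27, chr7 44052341: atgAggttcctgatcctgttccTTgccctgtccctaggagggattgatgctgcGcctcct
Klk1b5 and Klk1b4 are identical over these bases, and Klk1b26 and Klk1b27 share 56 of 60. Over whole transcripts the sharing was smaller. Of the windows of 100 bases, about a read, 0.466% in Klk1b26, 0.789% in Klk1b8, 5.26% in Klk1b5, 2.70% in Klk1b4 and 1.77% in Klk1b27 were found exactly in another Klk1 or Klk1b transcript. Within 2 mismatches the shares were 12%, 18%, 21.9%, 18.6% and 14.6% in the same order. How reads that match several copies were divided is not given in the sources used here, so the level of any single Klk1b gene is less certain than their sum.

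Klk1b26, a kallikrein that can process prorenin, was at 5.72, 4.97 and 4.0 FPKM in Nell2-/- libraries and 0.458, 0.668 and 0.944 FPKM in WT libraries, with no overlap. It rose by 2.69 ± 0.56 (adjusted p = 0.00102), a call lost with 0.01 FPKM added before logs (adjusted p = 0.0865). In the operated mice no library of Klk1b26 exceeded 0.467 FPKM, and it was listed at 0 in the 3 BOD libraries. Klk1b8 was at 2.52, 1.64 and 2.24 FPKM in Nell2-/- libraries, against 0.119, 0 and 0.420 FPKM in WT libraries, a rise of 3.29 ± 0.68 (adjusted p = 9.61e-04) with no overlap. Klk1b5 was at 3.75, 2.47 and 1.32 FPKM in Nell2-/- tissue, against 1.05, 0.816 and 0.275 FPKM in WT tissue. Its libraries did not overlap, but the rise of 1.72 ± 0.54 (adjusted p = 0.0197) was lost without single libraries: 0.107 without WT library 3, 0.0906 without Nell2-/- library 1 and 0.0533 without Nell2-/- library 2 (adjusted p). Klk1b4, the gene of the alpha subunit of the nerve growth factor complex, was listed at 0.306, 0.256 and 0 FPKM in Nell2-/- tissue and at 0 in the 3 WT libraries (adjusted p = 0.0293), and that call was lost without each library but Nell2-/- library 3, with values of 0.0632 to 0.154. The UOD and Nell2-/- changes of Klk1b26 differed by -3.80 ± 0.80 (adjusted p = 0.00910), and that difference had an adjusted p of 0.0839 with 0.01 FPKM added before logs.

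Klk1b27 went the other way after BOD, with 0.204, 0.472 and 0.379 FPKM in BOD libraries, against 1.18, 0.749 and 1.26 FPKM in sham libraries, a change of -1.38 ± 0.39 (adjusted p = 0.00516) with no overlap. It had 0.853, 0.593 and 0.951 FPKM in Nell2-/- tissue and 0.336, 0.261 and 0.923 FPKM in WT tissue, a change of 0.70 ± 0.39 (adjusted p = 0.179) that passed the test only without WT library 3 (adjusted p = 0.0232). Klk8, neuropsin, lies outside the Klk1b group in the same cluster and stayed under 1 FPKM. The ipsilateral libraries had 0.274, 0.276 and 0.176 FPKM, against 0, 0.0751 and 0.0715 FPKM in the contralateral ones, a rise of 1.23 ± 0.27 (adjusted p = 0.00185). The contralateral libraries in turn lay below the 0.402, 0.306 and 0.280 FPKM of the sham libraries, with a change of -1.56 ± 0.27 (adjusted p = 0.00188), and the highest ipsilateral library, at 0.276 FPKM, stood just under the lowest sham library, at 0.280 FPKM. Klk8 was the single member called between contralateral and sham tissue, where 5.99% of all genes were called lower and 6.65% higher. The UOD change of Klk8 exceeded its Nell2-/- change by 1.75 ± 0.39 (adjusted p = 0.0127). Exons of Klk8 share 382 of 1540 bases with 2310002F09Rik on the other strand, a transcript that was not analysed here.

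The upstream windows of the 3 kallikreins with the highest levels in Nell2-/- tissue are shown because these genes rose together, with capitals as above.
Klk1b8, chr7:43950416-43950665: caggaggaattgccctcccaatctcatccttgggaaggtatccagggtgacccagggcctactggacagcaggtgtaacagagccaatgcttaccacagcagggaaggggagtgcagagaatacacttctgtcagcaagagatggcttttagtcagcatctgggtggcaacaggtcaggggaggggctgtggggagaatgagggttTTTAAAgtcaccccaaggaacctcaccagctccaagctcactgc
Klk1b26, chr7:44012428-44012677: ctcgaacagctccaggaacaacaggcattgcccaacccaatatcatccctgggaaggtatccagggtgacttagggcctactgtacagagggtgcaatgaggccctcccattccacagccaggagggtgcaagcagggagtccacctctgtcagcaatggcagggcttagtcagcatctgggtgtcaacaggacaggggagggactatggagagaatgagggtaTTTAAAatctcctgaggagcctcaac
Klk1b5, chr7:44216224-44216473: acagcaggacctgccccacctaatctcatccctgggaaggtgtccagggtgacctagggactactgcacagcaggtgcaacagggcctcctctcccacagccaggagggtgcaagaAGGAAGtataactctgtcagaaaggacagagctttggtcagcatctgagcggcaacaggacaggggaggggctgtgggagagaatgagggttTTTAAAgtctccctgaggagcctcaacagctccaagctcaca
The letters TTTAAA, searched after these windows had been read, stood 44, 26 and 42 bases before the start, and Klk1b5 also held AGGAAG 134 bases before it, letters found in 29.2% of all promoters. Of the 13 Klk1b members with an entry 12 held TTTAAA (all but Klk1b21), as did 6 of the 53 other members with an entry and 12.1% of all promoters. The 12 include Klk1b members with no call in Nell2-/- tissue. Identity over the 250 bases was 73.6% between Klk1b8 and Klk1b26, 81.2% between Klk1b8 and Klk1b5 and 80.0% between Klk1b26 and Klk1b5. Entries were found for 66 of the 82 members, 20 of the 26 described.

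**Figure D5:**
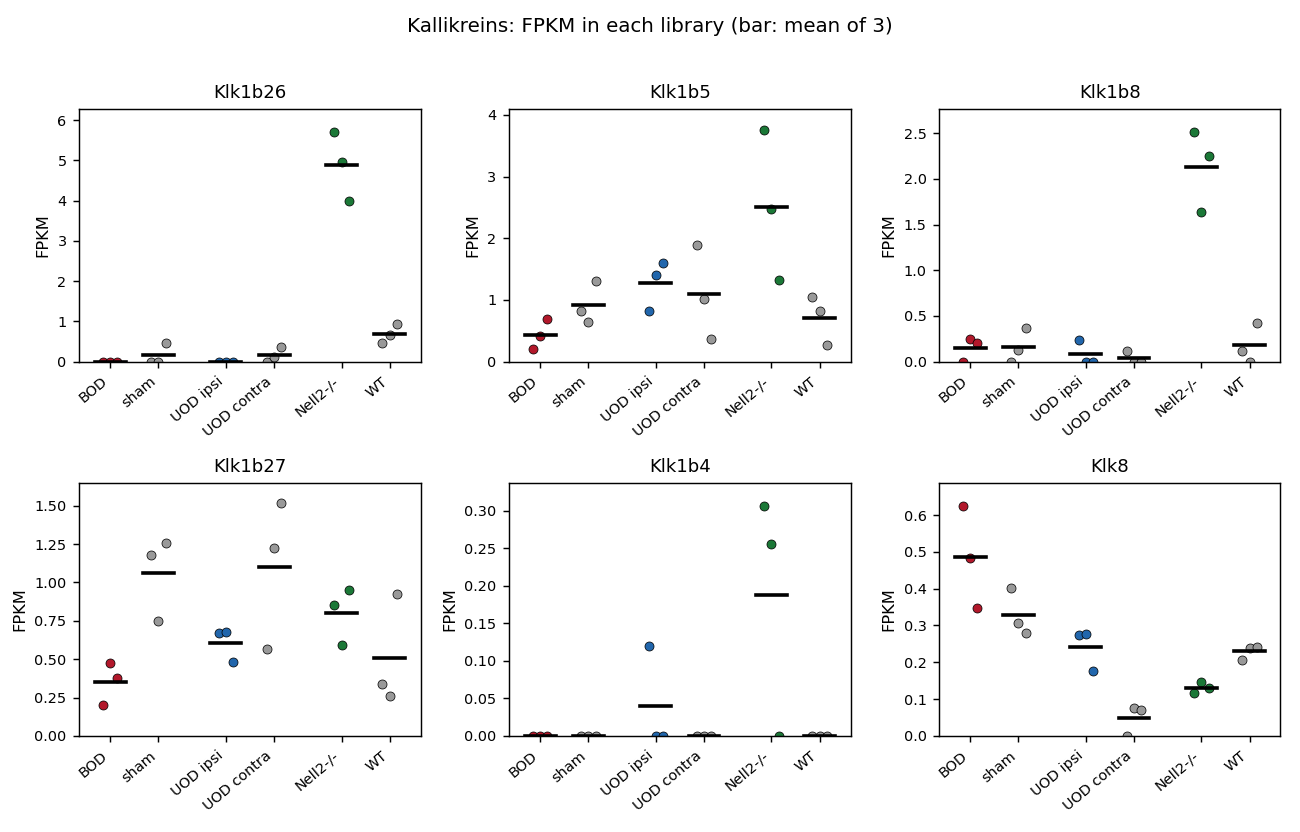
FPKM (y axis, from 0) of Klk1b26, Klk1b5, Klk1b8, Klk1b27, Klk1b4 and Klk8 in each library of the 6 groups (x axis), with the mean of 3 as a bar. The 3 Nell2-/- libraries are the highest of all 18 for Klk1b26, at 4.0 to 5.72 FPKM, and for Klk1b8, and Klk1b4 is above 0 in 3 of 18 libraries.

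The members that were not tested hold the rest of the family. Of these 37, 21 were above 0 somewhere, with a highest value of 0.270 FPKM in any library. The remaining 16 were listed at 0 throughout, among them the pancreatic trypsinogens Prss1, Prss2 and Prss3, enteropeptidase (Tmprss15), the airway-type proteases Tmprss11a, Tmprss11c, Tmprss11d, Tmprss11f and Tmprss11g, the testis protease Tmprss12, and the kallikreins Klk4, Klk5, Klk6, Klk12, Klk1b22 and Klk1b7-ps. The 19 tested members with no call in any of the 4 comparisons included Klk1, tissue kallikrein, with group means of at most 0.339 FPKM, and Tmprss6, matriptase-2 of the liver, with at most 0.533 FPKM.

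A list of partners, chosen for their known roles as activators, inhibitors, substrates or receptors of these proteases, was read beside the members. St14, matriptase, which activates prostasin, had 85.6 ± 7.27 FPKM in BOD and 86.3 ± 1.32 FPKM in sham tissue (SD, n = 3 each), a change of -0.015 ± 0.056, adjusted p = 0.835. It fell in ipsilateral tissue to 56.0 ± 1.35 FPKM, against 81.6 ± 2.54 FPKM on the contralateral side, with a change of -0.54 ± 0.056, adjusted p = 6.66e-07, and in Nell2-/- tissue to 53.3 ± 2.63 FPKM, against 80.9 ± 2.35 FPKM in WT tissue, with a change of -0.60 ± 0.056, adjusted p = 1.37e-07. Prss8 and St14 thus moved in opposite directions in UOD and Nell2-/- tissue. The inhibitor gene Spint1 (HAI-1) rose to 189 ± 20.5 FPKM in BOD tissue, against 44.7 ± 1.46 FPKM in sham tissue, by 2.07 ± 0.073, adjusted p = 9.74e-14, and also rose in UOD (0.30 ± 0.073, adjusted p = 0.00422) and Nell2-/- tissue (0.38 ± 0.073, adjusted p = 4.15e-04). Spint2 (HAI-2), the most abundant partner, had 886 ± 150.1 FPKM after BOD and 673 ± 77.6 FPKM after sham operation and rose in all of these comparisons, by 0.39 to 0.46. Hpn, hepsin, rose after BOD (0.49 ± 0.11, adjusted p = 6.96e-04) and in UOD (0.68 ± 0.11, adjusted p = 7.33e-05).

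Of 16 tested partners, 10 rose and 1 fell after BOD, 4 rose and 2 fell in UOD, and 4 rose and 3 fell in Nell2-/- tissue. The shares were 62.5% higher and 6.25% lower after BOD, beside 30.4% and 31.4% of all genes, 25% and 12.5% in UOD, beside 16% and 18.6%, and 25% and 18.8% in Nell2-/- tissue, beside 17.8% and 18.6%. The kininogen genes Kng1 and Kng2, whose products tissue kallikrein cleaves to kinins, rose after BOD, with Kng2 at 7.29 ± 0.81 FPKM in BOD and 0.86 ± 0.44 FPKM in sham tissue (3.07 ± 0.40, adjusted p = 4.00e-06) and Kng1 at 2.13 ± 0.28 FPKM in BOD and 0.038 ± 0.033 FPKM in sham tissue (4.04 ± 0.34, adjusted p = 1.25e-08). In Nell2-/- tissue Kng1 fell, listed at 0 in the 3 libraries, against 0.132, 0.257 and 0.116 FPKM in WT libraries (-1.39 ± 0.34, adjusted p = 0.00332). Among subunits of the epithelial sodium channel, the substrate of prostasin, Scnn1b rose after BOD (1.41 ± 0.26, adjusted p = 1.51e-04) and fell in UOD (-2.30 ± 0.26, adjusted p = 2.04e-06) and Nell2-/- tissue (-1.44 ± 0.26, adjusted p = 2.68e-04), Scnn1g rose after BOD (1.87 ± 0.37, adjusted p = 2.98e-04) and Scnn1a rose in UOD (0.48 ± 0.084, adjusted p = 2.11e-04). F2rl1, a receptor that serine proteases activate, rose after BOD (0.35 ± 0.12, adjusted p = 0.0187) and in Nell2-/- tissue (0.36 ± 0.12, adjusted p = 0.0274). Acrbp, which binds the acrosomal protease precursor proacrosin, rose after BOD (1.25 ± 0.29, adjusted p = 0.00117) and in Nell2-/- tissue (0.93 ± 0.29, adjusted p = 0.0176), while 12 of the 15 sperm markers fell after BOD. Acr, the gene of proacrosin, was the 1 partner called lower after BOD. Serpine2, a serine protease inhibitor, passed the test in none of these comparisons.

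The size of the change was tested between the models. Between the BOD and UOD changes 9 of the 45 members differed, where 37.4% of all genes did. Prss12 and Prss57 changed in the lower direction in BOD relative to UOD, and Prss8, Prss23, Prss53, Tmprss2, Tmprss4, Tmprss7 and Tmprss13 in the higher. Between the UOD and Nell2-/- changes 4 members differed (Klk1b26, Klk8, Prss39 and Prss57), where 4.65% of all genes did, 2.27% toward lower values in UOD and 2.38% toward higher. Of these 4 members 3 had the lower value in UOD and 1 the higher. Between the BOD and Nell2-/- changes 16 differed, 9 toward lower and 7 toward higher values in BOD, where 44.6% of all genes did, 22.7% toward lower and 21.9% toward higher. The UOD and Nell2-/- libraries were from separate cohorts of different age, so cohort and model cannot be told apart in the last 2 of these tests.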

How the data were processed

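Total RNA of IS-caput epididymides was sequenced by the authors from a stranded TruSeq mRNA kit, mapped to mm10 with TopHat2 2.1.1 and quantified with Cufflinks 2.2.1. The deposited values are FPKM per gene, headed as normalized, by a step not given in the sources used here, so depth and counting error are unknown. Of 24346 genes, 17302 that reached 0.1 FPKM in at least 3 of 18 libraries were tested with limma 3.58.1 (R 4.3.3) on log2(FPKM + 0.1), with 6 group means, trended robust moderation, 12 residual degrees of freedom and Benjamini-Hochberg adjustment over all of them.

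Members and lists were chosen with earlier results of these data known. Values are given for members with a group mean of at least 1 FPKM, for others called with a log2 fold change of at least 1 and for the 5 most abundant germ cell members. The labels do not say whether the Nell2-/- and WT libraries came from separate mice, so p-values measure the spread between libraries. Sequences are from RefSeq (GRCm38.p6) and GENCODE vM21. Alternatives were other pseudocounts and filters, median-ratio scaling, each pair of groups alone, a replicate block, leaving out each library, and the study's rule (ratio under 0.1 or over 10 with an unadjusted p under 0.05). The seminal vesicle markers Svs2, Svs3a, Svs4 and Svs5 and the exocrine pancreas markers checked for other tissue stayed at or under 0.387 FPKM when summed.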

Additional observations from a re-analysis of the deposited data

Results flagged for a closer look

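The BOD change and the UOD change were compared in the limma fit, as the difference of the 2 log2 fold changes, and 9 members differed at an adjusted p under 0.05. The difference was -3.49 for Prss57 and -3.20 for Prss12, which were lower in BOD libraries than in sham libraries and not lower in ipsilateral than in contralateral libraries. It was 3.15 for Tmprss7, 2.10 for Tmprss2, 2.02 for Tmprss13, 1.85 for Tmprss4, 1.27 for Prss23, 0.70 for Prss53 and 0.62 for Prss8, all toward higher values in BOD. The difference of Prss53 was lost in 8 of 19 alternatives, with an adjusted p of 0.106 without BOD library 1 and 0.105 without ipsilateral library 1. That of Tmprss4 was lost with 0.01 FPKM added before logs (adjusted p = 0.0816).

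Between the UOD and the Nell2-/- change 4 members differed by the same test. The difference was -3.80 for Klk1b26, -2.98 for Prss39, -0.69 for Prss57 and 1.75 for Klk8. Those of Klk1b26 and Prss39 depend on values at or near 0 in the ipsilateral libraries, and ran from -5.69 to -2.01 for Klk1b26 and from -6.10 to -0.78 for Prss39 over the alternatives. The difference of Prss57 was lost without contralateral library 2 (adjusted p = 0.0581) or Nell2-/- library 3 (adjusted p = 0.0545). Age and cohort differ between these groups and cannot be told apart from the model.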

How the results depend on the processing

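Of 43 changes called among the described members, 31 were called the same way in every alternative limma fit in which the member was tested. None reversed in those fits. The study's rule was not part of this count, and a member removed by a stricter filter was not judged under that filter. Asking for 1 FPKM in 3 libraries left 4 members lower after BOD, 2 lower in UOD, 0 lower in contralateral against sham tissue and 2 differing between UOD and Nell2-/- changes, fewer members being tested. Adding 0.01 FPKM left 3 lower in UOD. By the study's rule 2 members were lower and 2 higher after BOD, 1 lower and 0 higher in UOD, 1 lower and 1 higher in Nell2-/- tissue and 0 lower in contralateral tissue. With the spread of each comparison's own libraries 2 members were lower in contralateral tissue. Median-ratio scaling changed no count, but its factors were 1.004 to 1.013 in all libraries, so it could change little.

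Leaving out 1 library at a time gave 6 to 8 members lower and 10 to 11 higher after BOD, 4 to 5 lower and 5 to 7 higher in UOD, 3 lower and 7 to 9 higher in Nell2-/- tissue, and 1 to 2 lower and 0 to 1 higher in contralateral tissue, the highest of the last pair without sham library 3. The members differing numbered 8 to 10 (BOD and UOD), 3 to 5 (UOD and Nell2-/-) and 13 to 17 (BOD and Nell2-/-).

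Without their most abundant genes, the ratio of summed FPKM after BOD was 5.08 for epithelial members and 0.0419 for germ cell members, in UOD 1.34 and 0.0390, and in Nell2-/- tissue 1.36 and 0.992; with them it was 2.98 and 0.381, 1.74 and 0.197, and 1.61 and 0.754.

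Deviations of libraries sharing a replicate number correlated at -0.059 to 0.076, under 0.1, so the numbers were taken as names. In Nell2-/- and WT tissue each library correlated best with its own number (0.041 to 0.076, against -0.073 to 0.026 for other numbers), a hint from the data and not from the design. With a replicate block 7 members were lower and 11 higher after BOD, 5 and 6 in UOD, 3 and 10 in Nell2-/- tissue and 1 and 0 in contralateral tissue, and no call was lost or gained.

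Depth is unknown, so members under 1 FPKM, which include all germ cell calls but that of Prss41 in UOD, are the least certain.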
